A study of Mus musculus with 32 samples.

Results

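Genes of blood vessels and of the signals that form them, 10 in all, were followed in the gastrocnemius (GAS) muscle of the mouse after its nerve was cut. They were the endothelial genes Pecam1, Cdh5, Kdr, Flt1 and Tek, the secreted factors Vegfa, Vegfb, Angpt1 and Apln, and the oxygen-regulated transcription factor Hif1a. They were chosen by name, with earlier results of these data known, so counts of them beside shares of all genes are a description. All 10 were found among the 33397 genes of the deposited table and passed the filter on low values. RNA had been sequenced from whole GAS muscles on day 0 and on 7 later days (1, 3, 5, 7, 14, 21 and 28 d), 4 per time point and 32 in all.
By the labels the animals were C57BL/6 mice and the treatment was sciatic nerve transection at every time point, 0 d included. By the methods of the study they were male C57BL/6J mice of 6 to 8 weeks, the left sciatic nerve was cut by taking out a short piece, and sham mice had the operation without the cut. The 0 d samples were used here as the reference, and whether they were sham-operated is not given by the labels. The study describes its own RNA-seq calls as made against a sham, nondenervated group. No knockout mice were among these samples. The study describes its samples as biologically independent. The columns of the table name a time point and no animal. The limma p-values below come from 1 fit of all 32 samples. They rest on 1 spread per gene, that between samples of the same time point, pooled over all time points. The limma SE of a gene is thus the same at each time point, as 0.16 for Vegfa at 3 d and at 5 d. It does not show the spread of the 4 samples of that time point alone. The exact p-values of ratios use only the samples compared.

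Skeletal muscle fibres lie in a dense bed of capillaries, whose endothelial cells are held together by the adhesion proteins PECAM1 and VE-cadherin (Cdh5). VEGF-A and VEGF-B, made in muscle mainly by the fibres, act on the endothelial receptors VEGFR2 (Kdr) and VEGFR1 (Flt1), of which VEGFR2 gives the strong growth signal and VEGFR1 can also sequester the ligand. Angiopoietin-1 holds vessels stable through the receptor TIE2 (Tek), apelin is a peptide of growing vessels, and HIF-1α turns on Vegfa and genes of glycolysis when oxygen is short. In whole muscle, fewer cells of a type and less RNA per cell cannot be told apart.

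The levels are FPKM, fragments per unit of exon length and per unit of sample total, and the differences are log2 differences of FPKM + 1 from 0 d, which understate the change of low genes. A gene is said to have risen or fallen where its adjusted p was under 0.05 and its change at least 1.5-fold. The samples held 14199901 to 17561584 fragments, recovered from the FPKM values. The mitochondrial share of these went from 14.5% to 18.2% at 0 d down to 6.69% to 11.3% at 7 d, and FPKM raises other genes where such a share shrinks. For 11943 genes whose mean FPKM reached 1, the median log2 difference from 0 d was 0.12 at 1 d, 0.20 at 3 d and between 0.24 and 0.32 from 5 d to 28 d. After scaling by median ratios it lay between -0.02 and 0.03. The share of higher genes among all calls was 68.7% to 79.5% in the deposited values and 44.8% to 49.6% once scaled this way, so for each member the result under both is given. A call given below for another gene is marked where it was lost under that scaling, and counts of calls in a list are given under both where they differ by over 1.5 times. The first of the 4 samples at 3 d stood apart, at -19.4 on the first principal component against 0.75 to 6.25 for the other 3, and 3 d calls are given with the value without it, in square brackets for the genes outside the 10, where that value was added after the data were seen. Muscle fibre genes summed to between 23810 and 42920 FPKM in every sample, and 6 photoreceptor genes, looked at because the labels' extraction text names another tissue, summed to 0.27 at most.

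The pattern over time was not the same for all 10 genes. Against 0 d, Vegfb had fallen at all 7 later time points, and Kdr and Vegfa had fallen from 3 d to 28 d. Cdh5, Tek and Angpt1 had fallen at 3 d, and Apln at 3, 5 and 7 d, as deposited. Hif1a had risen at 1, 3, 5 and 7 d as deposited and at no time after median-ratio scaling. Pecam1 and Flt1 passed the criteria at no time as deposited. After median-ratio scaling Kdr and Vegfa were lower at 1 d too, Cdh5 and Tek from 3 d to 28 d, Flt1 from 5 d to 28 d, Angpt1 at 3 d and 5 d, Apln at 3, 5, 7, 21 and 28 d, and Pecam1 at 7 d.
In counts, 1 member was higher and 1 lower at 1 d, where 6.34% of all 22071 genes tested were higher and 2.49% lower. At 3 d, 1 was higher and 7 lower, against 13.2% and 6.03% of all genes, and Cdh5 and Tek did not pass without the first 3 d sample. At 5 d, 1 was higher and 4 lower (14.9% and 3.86% of all genes), and at 7 d the counts were again 1 and 4 (15.4% and 4.10%). No member was higher by limma (1 at an unadjusted p under 0.05 at each time) and 3 were lower at 14 d (14.6% and 3.83%), at 21 d (11.8% and 3.93%) and at 28 d (14.2% and 4.10%).
Of the 70 pairs of member and time point, 25 were thus lower and 4 higher, and after median-ratio scaling 46 were lower and 0 higher. Under that scaling 3 members were lower at 1 d, where 4.68% of the 22041 genes tested were lower and 4.14% higher, and 7 at 3 d (9.17% and 9.02% of all genes). At 5 d and at 7 d 8 were lower (7.69% and 6.71% of all genes, and 7.93% and 7.15%). At 14 d 6 were lower (7.55% and 6.57%), at 21 d 7 (7.16% and 6.44%) and at 28 d 7 (8.12% and 6.58%). The median difference of the members was lowest at 3 d, at -0.65 (-0.66 without the first 3 d sample), where that of all genes tested was 0.06. It was -0.11 at 1 d and between -0.28 (14 d) and -0.47 (28 d) at the later times, where the medians of all genes lay between 0.03 and 0.15. After median-ratio scaling it was -0.28 at 1 d, -0.87 at 3 d, between -0.66 (14 d) and -0.77 (5 d) up to 21 d, and -0.84 at 28 d. In the F test over the 8 time points all 10 members had an adjusted p under 0.05, as did 63.2% of all genes, with the lowest adjusted p for Vegfa (3.3e-10) and the highest for Hif1a (0.0014).

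**Figure D1:**
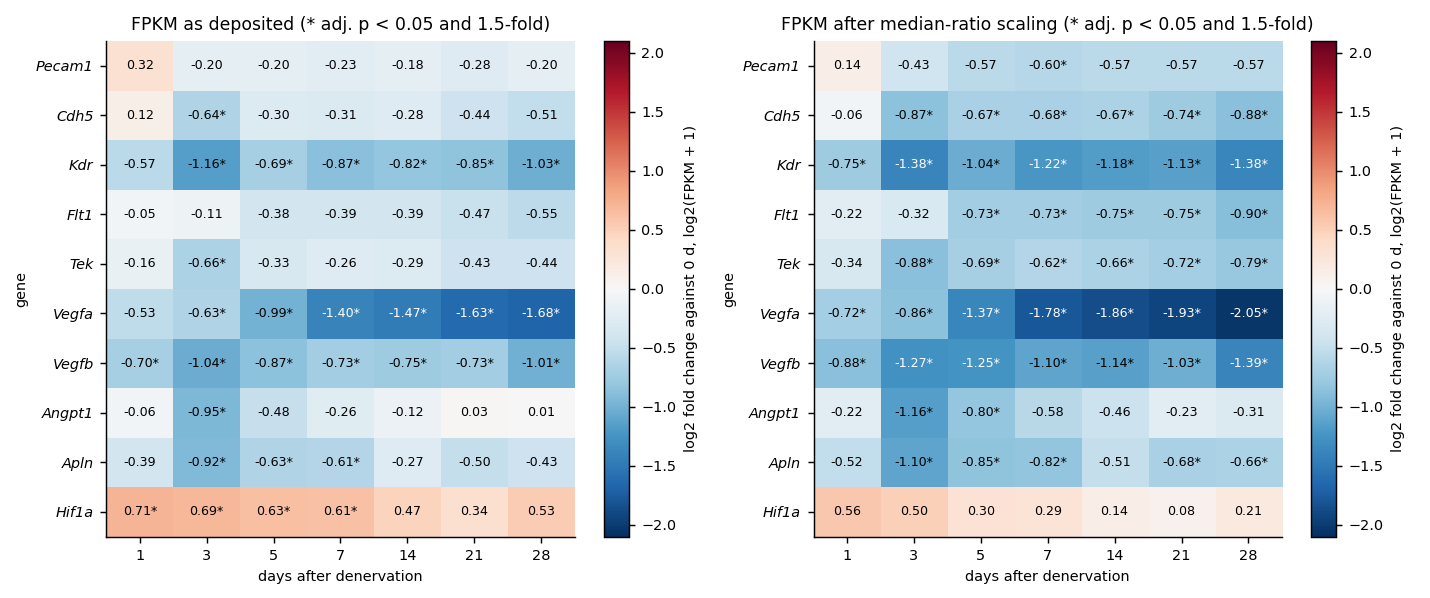
Log2 difference of each member (rows) from 0 d at each time point (columns), as deposited (left) and after median-ratio scaling (right), with an asterisk where the adjusted p was under 0.05 and the change at least 1.5-fold. Blue is lower and red higher, and Vegfa at 28 d was lowest under both scalings (-1.68 and -2.05), while the asterisks of Hif1a are on the left panel and not on the right.

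**Figure D2:**
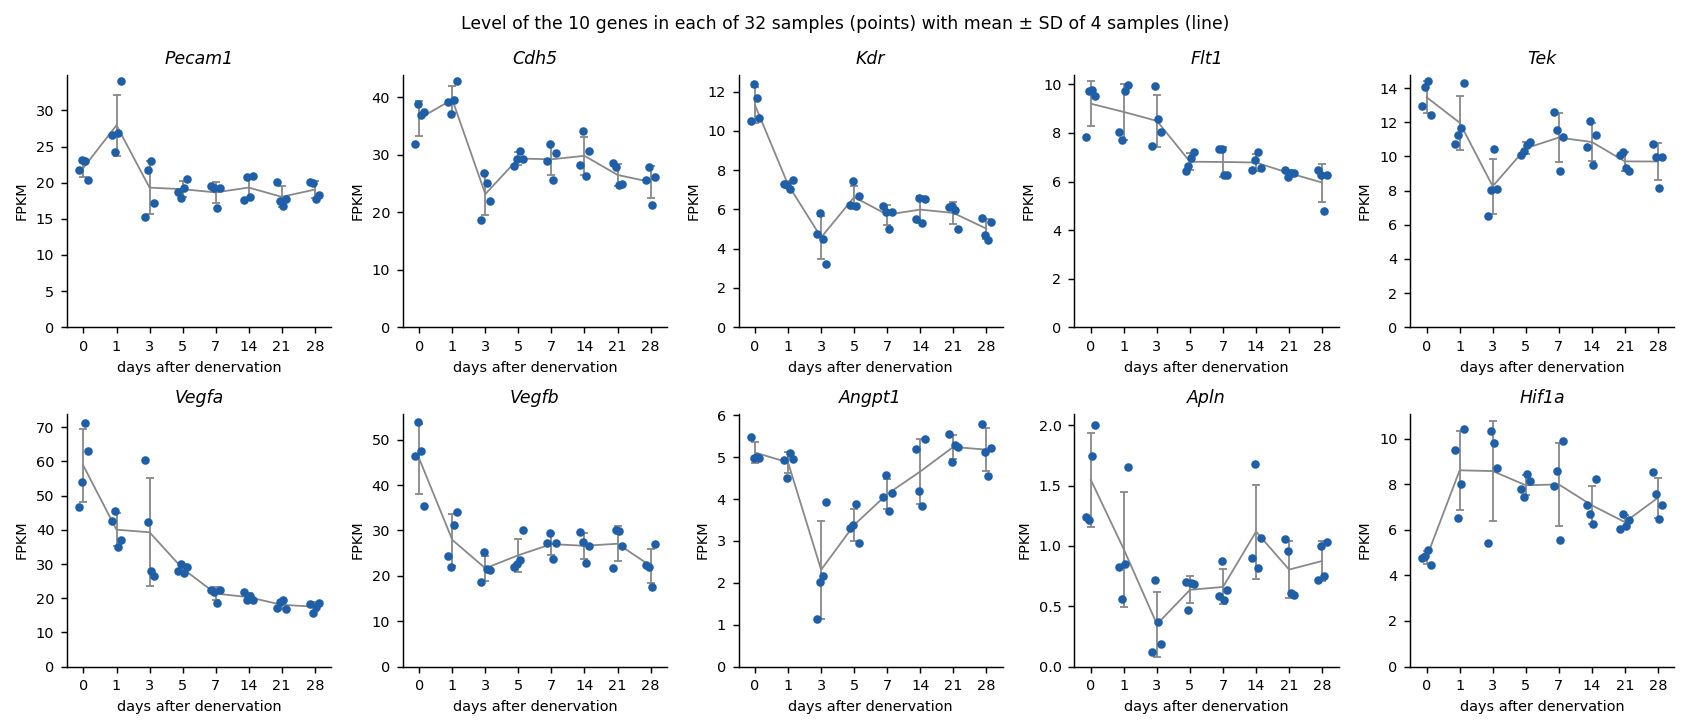
FPKM (y axis, from 0) of the 10 members against days after denervation (x axis, time points evenly spaced). Points are the 4 samples of a time point, and the line joins their means with bars of 1 SD. All 4 Kdr samples of each later time point lie below the lowest 0 d sample, and Vegfa runs down from a mean of 58.7 at 0 d to 17.5 at 28 d.

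Kdr encodes VEGFR2, the main signalling receptor for VEGF-A on endothelial cells, and lies on the minus strand at chr5:75932827-75978458 (GRCm38, 29 merged exons). Its FPKM was 10.5, 12.4, 11.7 and 10.6 in the 0 d samples, 7.28, 7.27, 7.02 and 7.48 at 1 d, and 4.77, 5.83, 4.50 and 3.20 at 3 d. It was 6.20, 7.43, 6.18 and 6.69 at 5 d and 5.55, 4.72, 4.47 and 5.36 at 28 d. Every sample after 0 d was thus below every 0 d sample, at all 7 time points.
The mean fell from 11.3 ± 0.905 (SD, n = 4) to 40.5% of it at 3 d and stood at 44.4% of it at 28 d. The log2 difference was -0.57 ± 0.10 (SE) at 1 d, with an adjusted p of 5.2e-05 but under 1.5-fold, and it passed without the first or the fourth 0 d sample (-0.60 each). It was -1.16 ± 0.10 at 3 d (adjusted p = 1.2e-10; -1.18 without the first 3 d sample) and -1.03 ± 0.10 at 28 d (adjusted p = 1.4e-09), and between -0.69 and -0.87 at 5, 7, 14 and 21 d. In TPM the 5 d value was -0.56, under 1.5-fold. After median-ratio scaling Kdr was lower at all 7 time points, by log2 differences of -0.75 to -1.38. Kdr also fell from 1 d to 3 d, by 0.59 on the log2 scale (adjusted p = 3.4e-05), a call that was kept without the first 3 d sample (-0.61) and lost without the fourth 1 d sample (-0.58) or the fourth 3 d sample (-0.46).

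Flt1 encodes VEGFR1, the second VEGF receptor of endothelium, which also exists as a soluble form that binds the ligand. The gene lies on the minus strand at chr5:147561604-147726011 (33 merged exons), and exon-summed FPKM does not separate the forms. Its FPKM was 7.81, 9.72, 9.77 and 9.52 at 0 d, 7.45, 9.92, 8.58 and 8.03 at 3 d, and 6.49, 6.28, 4.80 and 6.27 at 28 d. The groups overlapped at 1 d and 3 d, and from 5 d on every sample was below every 0 d sample.
The difference was -0.11 ± 0.09 at 3 d (adjusted p = 0.37; -0.05 without the first 3 d sample) and -0.55 ± 0.09 at 28 d (adjusted p = 5.7e-06), short of 1.5-fold. Without the first 0 d sample the 28 d difference was -0.62 and passed, as it did without the first 28 d sample (-0.59). After median-ratio scaling Flt1 was lower from 5 d to 28 d, by -0.73 to -0.90. At 1 d and 3 d the sign turned on rescaling to TPM, to 0.06 and 0.05.

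These 2 genes encode receptors of the same ligand and had different levels over time, so the start of each is shown. RefSeq (GRCm38.p6) gives for Kdr the window chr5:75978406-75978705 and for Flt1 the window chr5:147725962-147726261, both on the minus strand and both from 250 bases before to 50 after the start. Capitals mark the letters searched on both strands, ACGTG and GCGTG (cores of the hypoxia response element that HIF proteins bind) and CCGGAA (a core bound by ETS factors, the family of the endothelial regulator Erg).
Kdr: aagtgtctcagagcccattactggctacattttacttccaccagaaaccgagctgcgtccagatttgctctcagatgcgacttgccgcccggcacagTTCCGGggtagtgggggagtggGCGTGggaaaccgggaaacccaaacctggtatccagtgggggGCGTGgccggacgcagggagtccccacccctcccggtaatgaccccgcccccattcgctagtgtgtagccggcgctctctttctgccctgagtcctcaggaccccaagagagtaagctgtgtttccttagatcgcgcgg
Flt1: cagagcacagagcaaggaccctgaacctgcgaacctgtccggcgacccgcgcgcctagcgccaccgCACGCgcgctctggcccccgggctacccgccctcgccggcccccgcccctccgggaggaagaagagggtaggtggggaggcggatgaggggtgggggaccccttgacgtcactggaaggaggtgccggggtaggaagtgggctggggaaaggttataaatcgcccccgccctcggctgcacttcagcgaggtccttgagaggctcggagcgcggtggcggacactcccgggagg
The Kdr window held 2 matches to GCGTG and 1 to CCGGAA, and the Flt1 window held 1 match to GCGTG. Among 32851 promoters of the same length, 19.6% held ACGTG, 32.4% held GCGTG, 43.8% held at least 1 of these, and 14.9% held CCGGAA. A match is a description of the sequence and not a site shown to be bound.

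A ratio of 2 genes within a sample does not depend on how the sample was scaled. Cdh5 encodes VE-cadherin, the adhesion protein of endothelial junctions, and served as the common denominator for the other endothelial members. The ratio of Kdr to Cdh5 FPKM was 0.312 at 0 d (0.284 to 0.328 in the 4 samples), 0.184 at 1 d (0.175 to 0.196), 0.199 at 3 d (0.145 to 0.255) and 0.200 at 28 d (0.169 to 0.216). Each of the 7 later groups lay wholly below the 0 d samples, with log2 differences between -0.47 ± 0.08 (SE) at 5 d and -0.76 ± 0.06 at 1 d.
The exact two-sided permutation test of 4 against 4 samples gave p = 0.0286 at each time point, the smallest value it allows, and 0.060 after adjustment over the 42 ratio tests. Of these 42 tests 20 reached that smallest p, and 0 were under 0.05 after adjustment. Leaving out any 1 sample left the Kdr to Cdh5 difference between -0.41 and -0.81. The ratio of Flt1 to Kdr had the opposite sign. It was 0.815 at 0 d (0.744 to 0.895) and 1.92 at 3 d (1.56 to 2.51), a log2 difference of 1.22 ± 0.16 (1.31 without the first 3 d sample; exact p = 0.0286, adjusted p = 0.060). It was still 1.19 at 28 d (1.07 to 1.33, the same p values), and only the 5 d samples overlapped those of 0 d (0.893 to 1.13, exact p = 0.0571).
Tek over Cdh5 had a 0 d ratio of 0.372. Its log2 difference was between -0.06 and 0.05 from 3 d to 28 d with exact p between 0.429 and 0.857, and -0.30 ± 0.09 at 1 d (exact p = 0.0571). Flt1 over Cdh5 was above all 0 d samples at 3 d, by 0.54 ± 0.05 (0.50 without the first 3 d sample; exact p = 0.0286, adjusted p = 0.060), and differed by -0.18 to -0.08 at the other times, where the groups overlapped. Pecam1 over Cdh5 was above all 0 d samples at 3 d (0.45 ± 0.08, and 0.46 without the first 3 d sample) and at 28 d (0.31 ± 0.09), with the same p values.

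**Figure D3:**
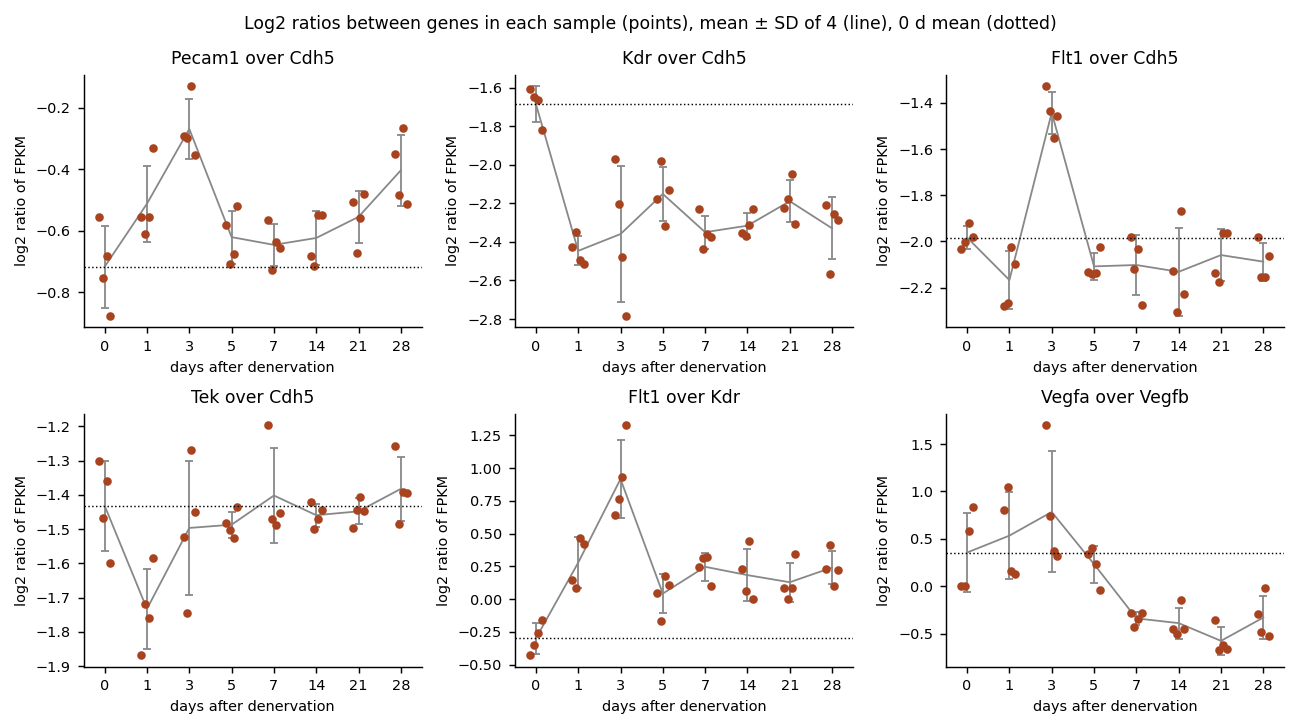
Log2 ratio of the FPKM of 2 members (y axis) against days after denervation (x axis) in each of 32 samples (points), with the mean and SD of 4 samples (line and bars) and the 0 d mean (dotted). Kdr over Cdh5 lies below the 0 d samples at all 7 later time points, and Vegfa over Vegfb lies below them from 7 d to 28 d.

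Cdh5 itself, on the plus strand at chr8:104101625-104144511, had an FPKM of 32.0, 38.9, 36.9 and 37.5 at 0 d and of 39.1, 37.1, 39.5 and 42.8 at 1 d. It was 18.7, 26.9, 25.1 and 22.0 at 3 d, and 25.6, 27.9, 21.3 and 26.2 at 28 d. The 3 d and 28 d samples were all below the 0 d samples, and the 1 d samples overlapped them.
The 3 d difference from 0 d was -0.64 ± 0.09 (adjusted p = 2.0e-06). It was -0.54 without the first 3 d sample and -0.48 after rescaling to TPM, both under 1.5-fold. The step from 1 d to 3 d was larger, at -0.76 ± 0.09 (adjusted p = 2.1e-07), and -0.66 without that sample. At 28 d the difference of -0.51 (adjusted p = 4.9e-05) was under 1.5-fold, and after median-ratio scaling Cdh5 was lower at every time point from 3 d on (-0.67 to -0.88).
Tek, at chr4:94739289-94874976 on the plus strand, encodes the angiopoietin receptor TIE2. Its FPKM was 12.97, 14.1, 14.4 and 12.4 at 0 d, 6.51, 8.02, 10.4 and 8.06 at 3 d, and 10.7, 9.98, 8.13 and 9.96 at 28 d, with no overlap between either later group and 0 d. It had fallen at 3 d (-0.66 ± 0.10, adjusted p = 4.8e-06), and the value was -0.56 without the first 3 d sample and -0.53 in TPM, both under 1.5-fold. At the later times it was between -0.26 and -0.44, under 1.5-fold as deposited. After median-ratio scaling Tek was lower at all 6 time points from 3 d on, by -0.88 at 3 d and by -0.62 to -0.79 later.
Pecam1, at chr11:106654217-106750628 on the minus strand, encodes an adhesion protein of endothelium that platelets and some leukocytes also carry. Its FPKM was 21.7, 23.1, 23.0 and 20.4 at 0 d, 26.6, 24.3, 26.9 and 34.0 at 1 d and 20.1, 19.98, 17.7 and 18.4 at 28 d. The 1 d samples were all above and the 28 d samples all below those of 0 d, and neither difference reached 1.5-fold (0.32 ± 0.10, adjusted p = 0.015, and -0.20 ± 0.10, adjusted p = 0.098). After median-ratio scaling the 1 d difference was 0.14 (adjusted p = 0.085) and that of 28 d -0.57 (adjusted p = 1.1e-08), under 1.5-fold as at 3, 5, 14 and 21 d (-0.43 to -0.57), while at 7 d Pecam1 was lower (-0.60, adjusted p = 4.8e-09).
For the gene lists beside the 10 members, calls at some time are counted over the 7 later time points, at which 25.7% of all genes tested were higher at least once and 8.19% lower. Once scaled by median ratios these shares were 15.8% and 13.8%. Among the other 25 endothelial genes in the list, 1 was called higher and 4 lower at some time, and 20 at none, and after median-ratio scaling 1 was higher, 17 lower and 8 at none. At 3 d, 0 were higher and 3 lower as deposited and 9 lower after that scaling, with a median difference of -0.23 as deposited and -0.40 scaled. Without the first 3 d sample 2 were lower at 3 d as deposited (Sox7 and, at -0.59, Egfl7, a secreted protein of endothelium). Sox7, a transcription factor of endothelium, fell from 3.51 ± 0.220 to 1.17 ± 0.254 FPKM at 3 d (-1.06 ± 0.11, adjusted p = 6.0e-09 [-1.05]), and its relative Sox18 from 10.5 ± 1.25 to 6.25 ± 1.31 (-0.68 ± 0.13, adjusted p = 6.9e-05 [-0.58]). Icam2, an endothelial adhesion molecule, also fell at 3 d (-0.59 [-0.52]), and the calls of Sox18 and Icam2 were lost without the first 3 d sample. Cldn5, a tight junction protein, had risen at 1 d (0.82 ± 0.13, adjusted p = 1.4e-05), from 12.4 ± 2.03 to 22.7 ± 4.37, and after median-ratio scaling it was also lower at 5, 7, 21 and 28 d (-0.72 to -0.81).
Gpihbp1, which carries lipoprotein lipase on capillary endothelium, was lower at 28 d (-0.64), and after median-ratio scaling from 5 d on. From 5 d to 21 d, 0 of the 25 were called as deposited, where 11.8% to 15.4% of all genes were higher and 3.83% to 4.10% lower. With no fold threshold, 12, 12, 6 and 12 of them had an adjusted p under 0.05 at 5, 7, 14 and 21 d, mostly lower. Over all genes and the 7 later time points 43.2% of pairs did. After median-ratio scaling 8 to 13 were lower (7.16% to 7.93% of all genes). At 28 d, 1 was lower as deposited (4.10% of all genes) and 12 were lower scaled (8.12%). The list's summed FPKM was 188.5 to 205.6 at 0 d, 140.8 to 201.2 at 3 d and 143.8 to 175.3 at 28 d.
At each of the 7 time points 0 of the 25 had a lower difference from 0 d than Kdr, as deposited and after median-ratio scaling, which is a description with no test of the difference. This order is that of log2(FPKM + 1), which understates the change of low genes. In FPKM, Sox7 fell at 3 d to a smaller share of its 0 d mean (3.51 to 1.17) than Kdr did (11.3 to 4.58).

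**Figure D4:**
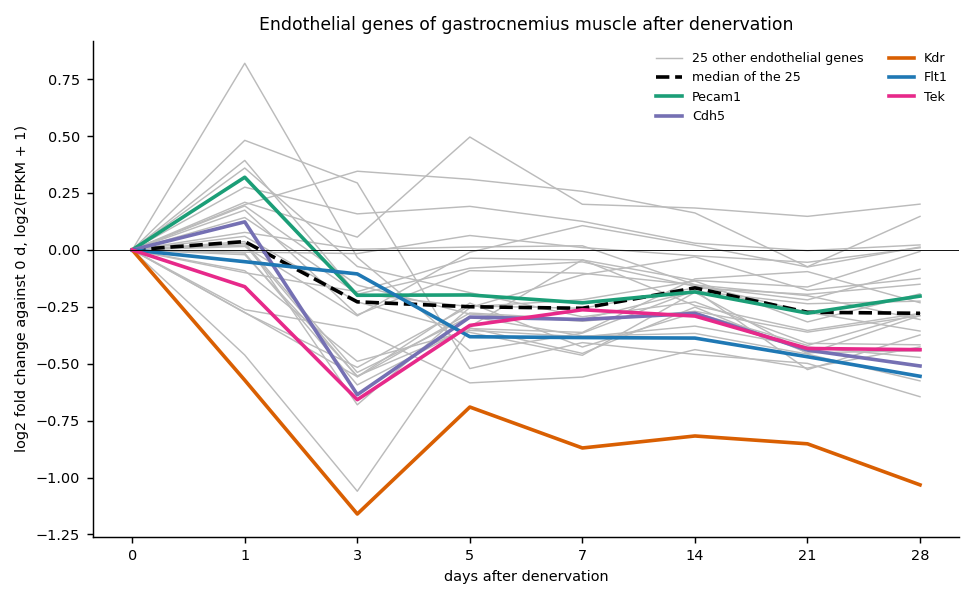
Log2 difference from 0 d (y axis) against days after denervation (x axis) for 25 endothelial genes (grey), their median (dashed) and 5 members (coloured). Kdr runs below the other lines at every time point, from -0.57 at 1 d to -1.03 at 28 d, while the median of the 25 lies between -0.28 and 0.04. The differences are of FPKM + 1, on which low genes such as Sox7 move less than in FPKM. The plotted values are as deposited, and after median-ratio scaling that median was -0.13 at 1 d and -0.40 to -0.62 later, with Kdr from -0.75 at 1 d to -1.38 at 28 d.

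Capillaries are wrapped by pericytes, and 9 genes of mural cells (pericytes and smooth muscle) were listed. Of these 1 was called higher and 3 lower at some time, and after median-ratio scaling 0 higher and 5 lower. Rgs5, a pericyte regulator of G proteins, fell from 133.3 ± 6.58 to 68.3 ± 4.70 FPKM at 3 d (-0.96 ± 0.07, adjusted p = 3.7e-12 [-0.91]), and Kcnj8, a channel subunit of pericytes, by 0.98 on the log2 scale (adjusted p = 7.9e-08 [-0.92]), each lower at 6 of 7 time points. Abcc9, the partner of that channel, which muscle fibres also express, had risen at 7 d (0.68 ± 0.09, adjusted p = 1.2e-07), a call lost after median-ratio scaling (0.31). The summed mural level was 237.8 to 266.1 FPKM at 0 d and 150.8 to 188.0 at 3 d.
Of 6 lymphatic genes, 4 were higher at some time (2 after median-ratio scaling), among them Lyve1, which some macrophages also carry, at 3 d (1.57 ± 0.23, adjusted p = 2.3e-06 [1.92]) and the chemokine Ccl21a at 1 d (1.74 ± 0.48, adjusted p = 0.0056). Of 8 red cell and platelet genes, which track blood left in the muscle, 1 was higher at some time, the platelet chemokine Ppbp at 1 d (1.89 ± 0.42, adjusted p = 7.4e-04), and 0 were lower, against 3 lower after median-ratio scaling. The part of these lists in the results for the members was not tested.

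Vegfa encodes VEGF-A, the main growth and survival factor of endothelium, and lies on the minus strand at chr17:46016993-46032369 (8 merged exons). Its FPKM was 46.5, 54.1, 71.2 and 63.1 at 0 d, 42.6, 45.4, 35.0 and 37.2 at 1 d, and 60.4, 42.4, 27.97 and 26.4 at 3 d. It was 27.9, 30.1, 27.5 and 29.2 at 5 d, 22.4, 21.9, 18.7 and 22.4 at 7 d, and 18.3, 15.7, 17.4 and 18.7 at 28 d. The first 3 d sample lay within the 0 d range, and apart from the 3 d group each later group was wholly below 0 d.
Of its 0 d mean, 48.8% was left at 5 d, 36.4% at 7 d and 29.8% by 28 d. The log2 difference was -0.99 ± 0.16 at 5 d (adjusted p = 5.8e-06), -1.40 ± 0.16 at 7 d (adjusted p = 1.7e-08), -1.47 at 14 d, -1.63 at 21 d and -1.68 ± 0.16 at 28 d (adjusted p = 6.3e-10). After median-ratio scaling Vegfa was lower at all 7 time points, by -0.72 at 1 d to -2.05 at 28 d. Over 14, 21 and 28 d together the 12 samples spanned 15.7 to 21.7 with a median of 18.8. No step between neighbouring time points passed for Vegfa after 1 d, so its order within the later times is not separated by these tests.
At 3 d the difference was -0.63 ± 0.16 (adjusted p = 0.0016). It was -0.86 without the first 3 d sample and fell short of 1.5-fold without the third 0 d sample (-0.53), the third 3 d sample (-0.50) or the fourth 3 d sample (-0.47), and in TPM (-0.47). In a fit of these 2 time points alone it did not pass, with the same difference.
RefSeq lists 2 starts for Vegfa. The window at chr17:46032328-46032627 held none of the 3 motifs and that of the other start, at chr17:46025114-46025413, held 1 ACGTG and 1 GCGTG. This second window lies wholly inside the gene span given above, so its matches may be in exon sequence. Elements farther from a start are outside such windows.

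Vegfb encodes VEGF-B, which binds VEGFR1 and not VEGFR2 and is abundant in oxidative muscle and heart. The gene is at chr19:6982473-6987651 on the minus strand. Its FPKM was 46.5, 53.9, 47.5 and 35.3 at 0 d, 24.4, 22.0, 31.3 and 34.0 at 1 d, 18.6, 25.3, 21.6 and 21.2 at 3 d, and 22.3, 21.9, 17.6 and 26.9 at 28 d. Each later group, those of 5 to 21 d included, was wholly below 0 d.
It was already lower at 1 d (-0.70 ± 0.14, adjusted p = 2.8e-04), while Vegfa was under 1.5-fold as deposited (-0.53 ± 0.16, adjusted p = 0.010, but past it at -0.64 without the first 0 d and at -0.59 without the second 1 d sample), though the difference between the 2 genes at 1 d did not pass as a ratio (exact p = 0.543). At 3 d the difference was -1.04 ± 0.14 (adjusted p = 5.2e-07; -0.97 without the first 3 d sample) and at 28 d -1.01 ± 0.14 (adjusted p = 8.6e-07). In TPM the 7 d and 14 d values were -0.55 and -0.56, under 1.5-fold, and after median-ratio scaling all 7 lay between -0.88 and -1.39.
The ratio of Vegfa to Vegfb was 1.32 at 0 d (1.00 to 1.79) and was below all 0 d samples from 7 d on. It was 0.792 at 7 d (0.741 to 0.822), 0.768 at 14 d, 0.675 at 21 d (0.630 to 0.784) and 0.804 at 28 d (0.696 to 0.985), each with exact p = 0.0286 and adjusted p = 0.060. At 1, 3 and 5 d the groups overlapped.
Of 6 further ligands, receptors and coreceptors of the VEGF family, 1 was higher and 1 lower at some time. Vegfd, a ligand of VEGFR3 (Flt4) in lymphatic vessels, rose from 2.23 ± 0.269 at 0 d to 10.3 ± 1.87 at 1 d and 12.8 ± 1.19 FPKM at 3 d (2.09 ± 0.11, adjusted p = 3.3e-15 [2.05]) and was higher at 6 time points, of which the call at 21 d (0.65) was lost after median-ratio scaling (0.43). Vegfc, the other VEGFR3 ligand, was lower at 3 d (2.11 ± 0.615 to 0.915 ± 0.324, -0.69 ± 0.14, adjusted p = 1.2e-04 [-0.59]), and after median-ratio scaling at 1, 5, 14 and 28 d too. Pgf, Nrp1, Nrp2 and Flt4 passed at no time, with differences between -0.29 and 0.25.

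Angpt1 encodes angiopoietin-1, the activating ligand of TIE2, and lies on the minus strand at chr15:42424723-42676977. Its FPKM was 5.47, 4.98, 5.00 and 4.99 at 0 d, 4.92, 4.51, 5.10 and 4.96 at 1 d, 1.14, 2.01, 2.16 and 3.93 at 3 d, and 3.31, 3.39, 3.87 and 2.96 at 5 d. At 28 d it was 5.80, 5.13, 4.56 and 5.23. The samples of 3, 5 and 7 d were all below 0 d, and those of 14, 21 and 28 d overlapped it.
The 3 d value was the lowest of the time course, 45.2% of 0 d (-0.95 ± 0.14, adjusted p = 1.8e-06), and it was -0.76 without the first 3 d sample. The fall from 1 d to 3 d was -0.89 ± 0.14 (adjusted p = 8.8e-06; -0.70 without the first 3 d sample). At 5 d the difference was -0.48 (adjusted p = 0.0054), under 1.5-fold. After median-ratio scaling it was -1.16 at 3 d and -0.80 at 5 d, both past the test, and -0.58 at 7 d and -0.46 at 14 d, under 1.5-fold, and at 28 d it was 0.01 in the deposited values and -0.31 under median-ratio scaling, not past the test under either. Gm17473 overlaps 737 bases of Angpt1 exon on the other strand, and whether counting used strand is not given in the sources used here. The step back up from 3 d to 5 d was 0.47 ± 0.14 (adjusted p = 0.014, under 1.5-fold), and it passed without the fourth 3 d sample (0.68), with a pseudocount of 0.1 (0.65) and in TPM (0.60).
Of 3 other genes of this system, Angpt4 had risen at 5 d (0.341 ± 0.174 to 1.36 ± 0.424 FPKM, 0.81 ± 0.13, adjusted p = 8.3e-06) and at 28 d (0.62), where the call was lost after median-ratio scaling (0.49). Angpt2, which opposes angiopoietin-1, and Tie1, the partner of TIE2, passed at no time as deposited (Angpt2 between -0.21 and 0.36, Tie1 between -0.58 and 0.03), and after median-ratio scaling Tie1 was lower at all 6 time points from 3 d on (-0.65 to -0.93) and Angpt2 still at none.

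Apln encodes apelin, the peptide ligand of the endothelial receptor Aplnr, and was the lowest of the 10, with 6 to 100 fragments a sample. The gene is on the minus strand at chrX:48025146-48034853. Its FPKM was 1.24, 1.21, 1.75 and 2.00 at 0 d, 0.124, 0.721, 0.371 and 0.188 at 3 d, 0.699, 0.467, 0.693 and 0.687 at 5 d, and 0.719, 1.00, 0.749 and 1.03 at 28 d. All samples of 3, 5, 7, 21 and 28 d were below 0 d, and at 1 d and 14 d the groups overlapped.
The mean at 3 d was 22.7% of 0 d (-0.92 ± 0.15, adjusted p = 6.1e-06; -0.84 without the first 3 d sample). The calls at 5 d (-0.63 ± 0.15) and 7 d (-0.61 ± 0.15) were each lost when 1 sample was left out (at 5 d -0.55 without the fourth 0 d and -0.58 without the second 5 d sample, at 7 d -0.53 without the fourth 0 d, -0.57 without the third 0 d and -0.58 without the third 7 d sample). With a pseudocount of 0.1 in place of 1 the 28 d difference was -0.74 in place of -0.43, since these levels lie near the pseudocount. After median-ratio scaling Apln was lower at 3 d (-1.10), 5 d (-0.85), 7 d (-0.82), 21 d (-0.68) and 28 d (-0.66), where the deposited values at 21 d and 28 d were -0.50 and -0.43, under 1.5-fold.
Aplnr moved at the same time, from 7.47 ± 0.740 at 0 d to 3.35 ± 1.70 FPKM at 3 d (-1.05 ± 0.18, adjusted p = 2.5e-05 [-0.79]), and was 8.79 ± 0.688 at 5 d. It passed at no other time, as deposited or scaled by median ratios.

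Hif1a encodes the oxygen-regulated subunit HIF-1α, which is controlled mainly at the protein level, so its RNA does not measure its activity. The gene lies on the plus strand at chr12:73901375-73947530. Its FPKM was 4.76, 4.83, 5.12 and 4.46 at 0 d, 9.48, 6.50, 8.01 and 10.4 at 1 d, 5.44, 10.3, 9.79 and 8.72 at 3 d, and 8.53, 7.55, 6.45 and 7.09 at 28 d. Every later sample, those between 3 d and 28 d included, was above every 0 d sample.
The mean was 180% of 0 d at 1 d (0.71 ± 0.14, adjusted p = 2.7e-04), and the difference was 0.69 ± 0.14 at 3 d (adjusted p = 2.2e-04), 0.63 at 5 d (adjusted p = 6.4e-04) and 0.61 at 7 d (adjusted p = 8.3e-04). It was 0.47 at 14 d (adjusted p = 0.0077), 0.34 at 21 d (adjusted p = 0.060) and 0.53 at 28 d (adjusted p = 0.0030), each under 1.5-fold. The 28 d value passed without the third 28 d sample (0.59). In TPM the 14 d and 28 d values were 0.72 and 0.75, past the test. Without the first 3 d sample the 3 d value was 0.87. The 7 d call was lost without the fourth 0 d sample (0.58) or the second (0.57) or the fourth (0.51) 7 d sample.
After median-ratio scaling the differences were 0.56, 0.50, 0.30 and 0.29 at 1, 3, 5 and 7 d and 0.08 to 0.21 later, all in the same direction and none at 1.5-fold, and quantile normalization gave 0.54, 0.47, 0.32 and 0.30 at those first 4 times. With mitochondrial genes out of the total the 5 d and 7 d values were 0.52 and 0.50, also under 1.5-fold. Of 10 macrophage and leukocyte markers, 4 were higher at 1 d (6.34% of all genes), 9 at 3 d (13.2%) and 10 at 5 d (14.9%) and 7 d (15.4%). Without the first 3 d sample 10 were higher at 3 d. At 14, 21 and 28 d 9 were higher (14.6%, 11.8% and 14.2%). Their summed FPKM was 122.9 to 177.6 at 0 d, 187.9 to 308.0 at 1 d, 262.1 to 878.5 at 3 d, 469.0 to 587.2 at 5 d, 331.2 to 1042 at 7 d, 336.6 to 839.5 at 14 d, 351.8 to 499.1 at 21 d and 391.2 to 471.4 at 28 d. The mean sum was 221.9 at 1 d, when Hif1a had its highest mean, and 626.5 at 7 d. None of the 10 was lower at any time, and Cd68, a lysosomal protein of macrophages, was the most raised (6.28 ± 0.895 to 122.7 ± 26.7 at 3 d, 4.07 ± 0.24, adjusted p = 2.2e-14 [4.02]), followed among the named ones by the lysozyme gene Lyz2 at 7 d (1.90 ± 0.39, adjusted p = 1.9e-04). The part of these cells in the Hif1a result was not tested. Gm15283 overlaps 330 bases of Hif1a exon on the other strand and Gm49321 overlaps 148 on the same strand.
The RefSeq window at the start of Hif1a, chr12:73907617-73907916 on the plus strand (GRCm38.p6), is shown because it held the most matches to the HIF core ACGTG among the 7 members with a window, marked in capitals as above.
Hif1a: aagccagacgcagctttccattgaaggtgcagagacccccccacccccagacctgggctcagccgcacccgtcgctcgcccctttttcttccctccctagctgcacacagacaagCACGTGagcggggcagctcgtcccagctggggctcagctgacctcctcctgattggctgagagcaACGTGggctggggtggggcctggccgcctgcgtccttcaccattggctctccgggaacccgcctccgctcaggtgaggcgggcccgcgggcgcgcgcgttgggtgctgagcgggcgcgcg
It held 3 matches to ACGTG over both strands, of which 2 are the same palindromic CACGTG read on either strand, also the letters of an E-box. Of the other windows, that of Vegfb held 2 matches to GCGTG, and those of Tek and Apln held none of the motifs. Pecam1, Cdh5 and Angpt1 had no window in the table used.

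Of 8 other HIF subunits and regulators, 2 were higher and 1 lower at some time, and after median-ratio scaling 2 and 2. Egln3, a prolyl hydroxylase that marks HIF proteins for destruction and is itself a HIF target, rose from 18.9 ± 3.43 to 132.7 ± 21.5 FPKM at 3 d (2.75 ± 0.13, adjusted p = 2.5e-16 [2.66]) and was 24.9 ± 1.18 at 28 d. Egln1, the hydroxylase thought to be the main oxygen sensor, fell from 56.9 ± 3.93 to 22.7 ± 0.659 at 3 d (-1.28 ± 0.06, adjusted p = 9.7e-16 [-1.28]) and stayed lower to 28 d. Arnt, the partner of HIF-1α, had risen at 1 d (0.77 ± 0.07, adjusted p = 3.2e-09) and was higher at 6 time points as deposited. After median-ratio scaling only its 1 d call was kept (0.60), and those of 3, 5, 7, 14 and 28 d were lost (0.32 to 0.47). Epas1, which encodes HIF-2α and is high in endothelium, passed at no time as deposited (-0.20 to -0.56) and was lower at 5, 7, 14, 21 and 28 d after median-ratio scaling (-0.76 to -0.94).
The 15 listed targets of HIF split, with 5 higher and 6 lower at some time and 5 at none (Pfkfb4 was higher early and lower at 28 d), and after median-ratio scaling 3 were higher and 8 lower. Bnip3, a mitophagy receptor, was higher at 3 d (55.3 ± 4.39 to 155.6 ± 47.3, 1.44 ± 0.12, adjusted p = 8.7e-11 [1.25]), and Pfkfb4, a regulator of glycolysis, at 1 d (1.23 ± 0.10, adjusted p = 1.3e-10). Ldha, the lactate dehydrogenase subunit of fast muscle, was lower at 6 time points (772.3 ± 33.9 to 188.7 ± 9.93 at 14 d, -2.03 ± 0.07, adjusted p = 7.4e-19). Pfkfb3, a relative of Pfkfb4, was also lower at 6 (-3.46 ± 0.16 at 21 d, adjusted p = 3.5e-16). The median of the list was between -0.37 (3 d) and 0.05 as deposited and between -0.47 and -0.05 after median-ratio scaling.
PGC-1 coactivators and ERR nuclear receptors, which drive oxidative genes in muscle and are known to raise Vegfa, were mostly lower, with all 5 listed genes lower at some time and 1 of them, Esrrg, higher later. Ppargc1b fell from 3.25 ± 0.628 to 0.909 ± 0.247 at 1 d (-1.15 ± 0.13, adjusted p = 5.1e-08). Esrrg was lower at 1 d (-1.57 ± 0.11, adjusted p = 5.2e-12) and higher at 21 d (0.90 ± 0.11, adjusted p = 9.4e-08). Ppargc1a was not called at 1 d (0.36) or 3 d (0.03 [-0.26]) and was lower at 5 d (-0.69) and 7 d (-0.79). The part of these genes in the Vegfa result was not tested.
Muscle fibre genes changed as well, and 9 of the 10 listed were lower and 4 higher at some time, some being both. Myh2, a fast oxidative myosin, fell from 440.5 ± 106 to 74.2 ± 37.5 FPKM at 3 d (-2.76 ± 0.29, adjusted p = 4.8e-09 [-2.22]). Myh7, the slow myosin, was lower at 3 d (-2.75 ± 0.47, adjusted p = 1.4e-05 [-2.47]) and higher at 28 d (2.02 ± 0.47, adjusted p = 6.2e-04). Mb, the oxygen store myoglobin, was lower at 1 d (-0.71), 3 d (-2.35 [-2.21]) and 5 d (-0.72). It was higher at 3 later time points, among them 21 d (1.40 ± 0.15, adjusted p = 5.6e-09). The summed level of the list was 39160 to 42920 FPKM at 0 d and 23810 to 27240 at 3 d, and its part in the Vegfa and Vegfb results was not tested.

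**Figure D5:**
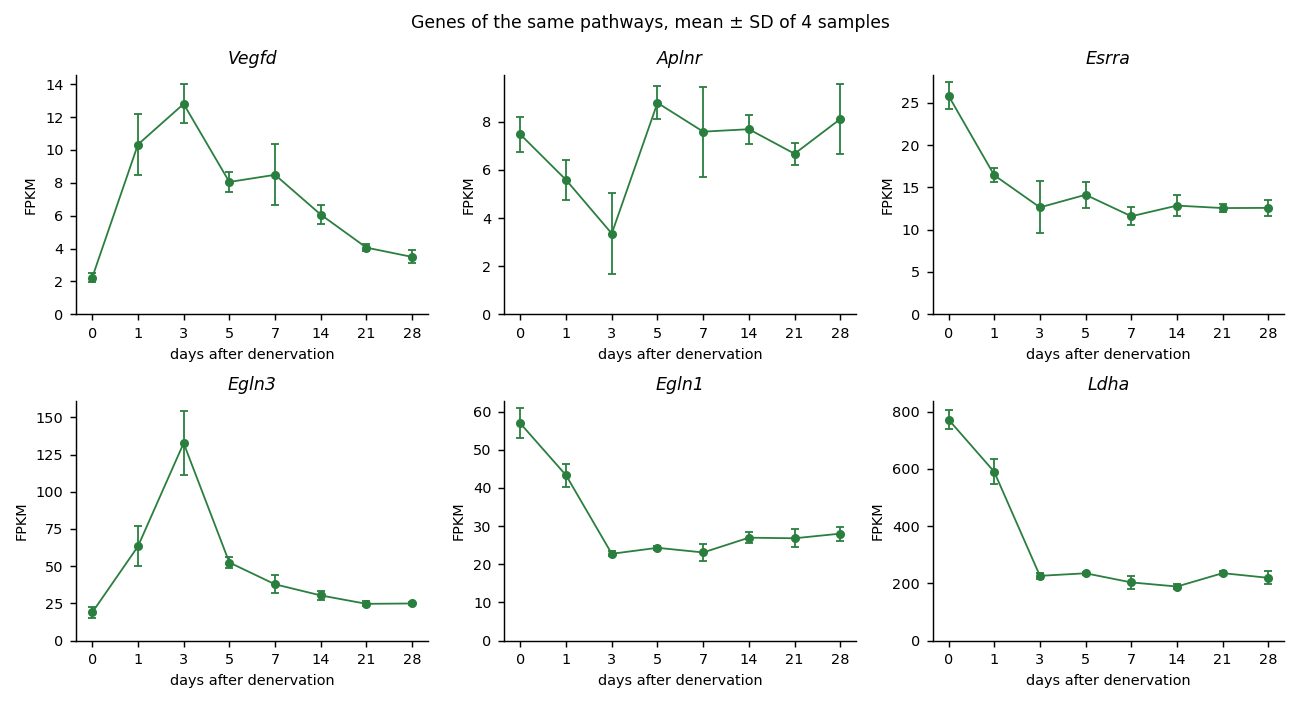
FPKM (y axis, from 0) against days after denervation (x axis) for 6 genes of the same pathways, as means of 4 samples with bars of 1 SD. Vegfd and Egln3 are highest at 3 d (12.8 and 132.7), Aplnr is lowest at 3 d (3.35), and Esrra, Egln1 and Ldha lie below 0 d at all later times.

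Genes that act in sprouting were listed as well. Of 14 genes of tip cells, stalk cells and Notch, 2 were higher, 2 lower and 10 not called at any time, and after median-ratio scaling 0 were higher and 7 lower. Dll4, the Notch ligand of tip cells, fell from 3.18 ± 0.300 to 1.47 ± 0.0815 at 3 d (-0.76 ± 0.09, adjusted p = 2.1e-08 [-0.77]), and Unc5b, a guidance receptor of tip cells, from 1.73 ± 0.165 to 0.573 ± 0.131 (-0.79 ± 0.09, adjusted p = 1.2e-08 [-0.75]). Cxcr4, a chemokine receptor that leukocytes also carry, was higher at 28 d (0.81 ± 0.22, adjusted p = 0.0028), and Hes1, a Notch target, at 21 d (0.62 ± 0.15, adjusted p = 9.9e-04), and both calls were lost after median-ratio scaling (0.52 and 0.34).
Of 8 endogenous inhibitors of angiogenesis, 6 were higher, 1 lower and 1 not called at any time, with 5 higher at 3 d, where 13.2% of all genes were higher, and after median-ratio scaling 4 were higher and 2 lower at some time. Thbs1, the matrix protein thrombospondin-1, rose from 5.89 ± 0.331 to 21.8 ± 8.70 at 1 d (1.64 ± 0.30, adjusted p = 7.2e-05), and Cxcl10, an interferon-induced chemokine, from 0.326 ± 0.154 to 4.01 ± 0.952 at 5 d (1.91 ± 0.36, adjusted p = 6.1e-05). Serpinf1, which encodes PEDF, was lower at 3 d (-0.91 ± 0.21, adjusted p = 6.7e-04), a call lost without the first 3 d sample [-0.57]. Of 8 fibroblast genes, 4 were higher and 1 lower at some time (3 and 3 after median-ratio scaling), with the collagen Col3a1 at 1.73 ± 0.42 (adjusted p = 0.0012) at 5 d, the matrix proteoglycan Lum at 1.39 ± 0.26 (adjusted p = 5.9e-05) at 14 d and Dpt, another matrix protein, at -0.75 ± 0.22 (adjusted p = 0.0070) at 3 d, a call lost without the first 3 d sample [-0.47]. Without that sample 3 fibroblast genes were higher and 0 lower at 3 d, against 0 and 1 with it.

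Steps between neighbouring time points show when the members moved, the first of them, from 0 d to 1 d, being the 1 d comparison above (Vegfb lower and Hif1a higher). From 1 d to 3 d, 3 of the 10 were lower (Cdh5, Kdr and Angpt1) and 0 higher, where 10.6% of all genes passed in either direction. Pecam1 and Tek also passed without the third 3 d sample (-0.60 each), and Apln without the second 1 d (-0.64) or the second 3 d sample (-0.66). No member was called at the later steps, where 5.76% of all genes passed from 3 d to 5 d, 0.657% from 5 d to 7 d, 0.634% from 7 d to 14 d, 0.453% from 14 d to 21 d and 0.199% from 21 d to 28 d. With no fold threshold, 5 of the 10 had an adjusted p under 0.05 from 3 d to 5 d and 0 at each step after it. Over all genes 10.2% of pairs of gene and step did, the step from 1 d to 3 d included. The step of Kdr from 3 d to 5 d was 0.47 ± 0.10 (adjusted p = 8.4e-04), under 1.5-fold.

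The genes whose log2 level ran most like each member over the 32 samples were found among 11932 genes, as a description, since all share the same time course and samples. For Cdh5 they were Tie1 (Pearson's r = 0.952), Arap3 (0.919) and Ptprb (0.897), and for Flt1 they were Epas1 (0.898), Tns1 (0.896) and Adgrf5 (0.884). For Tek they were Cxcl12 (0.887), Cavin2 (0.881) and Capn1 (0.873), and for Pecam1 they were Pdgfrb (0.905), Stk24 (0.896) and Rnf144a (0.894). Kdr instead had Slc2a4, the insulin-regulated glucose transporter of muscle and fat (0.913), Esrra, an ERR nuclear receptor (0.910), and Fez2 (0.908). Esrra had gone from 25.9 ± 1.61 to 12.6 ± 3.09 FPKM at 3 d and was lower at all 7 time points.
Vegfa ran with Mcrip2 (0.939), Rps6ka2 (0.939) and Slc9a2 (0.931), and Vegfb with Atp5d, a subunit of the mitochondrial ATP synthase (0.908), Pcp4l1 (0.882) and Arhgef10l (0.879). Hif1a ran with Csf2rb, a cytokine receptor of leukocytes (0.935), Litaf (0.933) and Csf2rb2 (0.922). Angpt1 had Ssx2ip (0.884), Tnmd (0.865) and Slco3a1 (0.858), and Apln had Adcy6 (0.848), Ptprm (0.847) and Cavin2 (0.842).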

How the data were processed

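RNA of 32 GAS muscles was sequenced as 150-bp paired-end reads. The authors deposited FPKM values, 1 per gene and sample; the submitters' processing notes name CASAVA, HISAT2 2.1.0, DESeq2 and GRCm38, and neither the counting tool nor its strand setting is given in the sources used here. Columns were mapped to time points by name, and those named C were taken as 0 d, the time point left. With GENCODE M21 merged exon lengths, 99.3% to 99.4% of values under 200 fragments came out whole (within 0.05), which gave the depth.

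FPKM values were tested as log2(FPKM + 1) with limma 3.58.1 (R 4.3.3, variance trend) in 1 fit of all 32 samples. Genes were kept at an FPKM of 0.1 in at least 4 samples (22071 genes), with Benjamini-Hochberg adjustment over all of them and a call at an adjusted p under 0.05 and 1.5-fold. The step was tested on simulated data. Ratios were compared by exact two-sided permutation. Python 3.11.15 with pandas 2.3.3 was used for the rest.

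The members and the gene lists were chosen with earlier results of these data known. Named were all members, up to 2 called genes with the highest and 2 with the lowest change of each list, and the 3 genes most correlated with each member. Icam2, Egfl7, Gpihbp1, Esrra, Ppargc1a, Epas1, Angpt2, Tie1 and the uncalled VEGF genes were added after their values were seen. Of the list genes, Apela and Crx had no match. The alternatives covered pseudocount, filter, scaling, thresholds, variance trend, the choice of samples and the omission of each in turn.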

Additional observations from a re-analysis of the deposited data

Results flagged for a closer look

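Among the 80 groups of 4 samples (10 members at 8 time points), 7 had a sample whose gap to its nearest neighbour was past the 95% limit of Dixon's test for the group's range, where chance flags about 4. At 7 d the third sample was low for Pecam1 (16.5 FPKM against 19.2 to 19.6) and for Vegfa (18.7 against 21.9 to 22.4). Kdr was low in the fourth 21 d sample (5.02 against 5.98 to 6.17). Flt1 was low in the first 0 d sample (7.81 against 9.52 to 9.77) and in the third 28 d sample (4.80 against 6.27 to 6.49). Angpt1 was high in the first 0 d sample (5.47 against 4.98 to 5.00), and Apln was low in the second 5 d sample (0.467 against 0.688 to 0.699).

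The effects at 3 d and at 1 d differed by a test of the difference itself, with an adjusted p under 0.05 for 6 of the 10 members (30.9% of all genes) and by at least 1.5-fold as well for 3 (10.6% of all genes), with log2 differences of -0.76 for Cdh5, -0.59 for Kdr and -0.89 for Angpt1 (limma, adjusted p between 2.1e-07 and 3.4e-05). That of Kdr was under 1.5-fold without the fourth 1 d sample (-0.58) or the fourth 3 d sample (-0.46). The other 3, Pecam1, Tek and Apln, had differences of -0.52, -0.50 and -0.54 (adjusted p = 1.4e-04, 3.6e-04 and 0.0054).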

How the results depend on the processing

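Against 0 d, 25 pairs of member and time point were lower and 4 higher. The lower and higher counts were 29 and 5 with a pseudocount of 0.1 and of 0.01, 46 and 0 after median-ratio scaling, 44 and 0 after quantile normalization, 47 and 7 with no fold threshold, and 8 and 0 with a 2-fold threshold. Over all genes and time points 4.05% of pairs were lower and 12.9% higher, against 10.3% and 32.9% with no fold threshold and 1.78% and 4.27% with 2-fold. The lower and higher counts of the members were 30 and 2 with mitochondrial genes out of the total, and 20 and 6 in TPM, where 6 calls were lost and 3 gained. Shares of all genes were not computed for the settings of pseudocount, quantile normalization, mitochondrial genes, TPM and samples. Counts under those settings show how calls of the members shift and not how the members compare with other genes. Leaving out each sample in turn gave 23 to 28 lower and 3 to 5 higher. Between neighbouring time points from 1 d on, 3 pairs were lower and 0 higher. There were 4 lower and 2 higher with a pseudocount of 0.1 and of 0.01, 4 lower and 1 higher in TPM, 4 lower and 0 higher after quantile normalization and with mitochondrial genes out of the total, 7 lower and 4 higher with no fold threshold, and 0 lower with 2-fold (over all genes 1.14% lower and 1.90% higher, against 4.07% and 6.14% with no fold threshold and 0.390% and 0.551% with 2-fold), and leaving out each sample gave 2 to 5 lower (5 without the third 3 d sample) and 0 to 1 higher (1 without the fourth 3 d sample). The cause of these shifts was not tested, except that the thresholds act by their construction. Under these alternatives 0 called pairs changed direction. Each of the 42 ratio differences moved by less than 1 SD with a pseudocount of 0.1 or with any sample left out. No paired analysis was possible because the columns of the table carry no sample label's replicate number. Depth limits Apln most, at 6 to 100 fragments a sample.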
